A study of Mus musculus with 18 samples.

Results

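The circadian clock genes described here are the 10 genes Arntl, Clock, Npas2, Per1, Per2, Per3, Cry1, Cry2, Nr1d1 and Dbp, which were taken by symbol from the 23420 gene symbols counted in whole mouse retinas. All 10 were among the 15196 genes with enough reads to be tested. RNA from the retinas of 9 BALB/cJ mice (Balb/cJ in the labels) was sequenced in 3 groups of 3 mice. All mice carried the wild-type genotype ("wt"), were 8 to 10 weeks old, were of both sexes and were kept on a light-dark schedule. Naïve mice received neither light exposure nor treatment. Vehicle-treated mice were dark adapted, had their pupils dilated, were exposed to white light of 15000 lux for 1 h and were injected intraperitoneally every day, from the day before the light, with DMSO. TD139-treated mice had the same light exposure and the same injections with TD139, an inhibitor of the sugar-binding protein galectin-3, at 15 mg/kg in DMSO. The retinas of light-exposed mice were taken 4 days after the light. In the study, DMSO, dark adaptation and dilation are described only for light-exposed mice. These and the light therefore cannot be told apart in a comparison with naïve mice. The hour of the day at which each retina was taken is not given in the sources used here, so that hour and group cannot be told apart either.

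The clock of mammalian cells is a loop of transcription in which BMAL1, encoded by Arntl, pairs with CLOCK or NPAS2 and activates genes that carry E-boxes. Among these are the Per and Cry genes, whose proteins return to the nucleus and repress the pair that switched them on, and Nr1d1 and Dbp. In a second loop the nuclear receptor REV-ERBα, encoded by Nr1d1, represses Arntl, while ROR receptors activate it from the same sites, and DBP drives genes that carry D-boxes. In the retina, clocks run in neurons of several layers, are set by light and dopamine, and time melatonin synthesis and the shedding of photoreceptor discs. As these loops turn, the RNA of Arntl and that of Dbp and Nr1d1 peak at opposite times of day.

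The sequences just before the start sites are shown for 4 of the genes that differed between TD139-treated and vehicle-treated mice, as the stretches in which E-boxes, D-boxes and receptor sites would be looked for. They are RefSeq sequences of the build GRCm38.p6, each the 250 bases before the most upstream start listed for the gene, read 5′ to 3′ on the strand of the gene. Arntl lies on the plus strand at chr7:113207215-113207464, Clock on the minus strand at chr5:76304793-76305042, Per3 on the minus strand at chr4:151044666-151044915 and Dbp on the plus strand at chr7:45704997-45705246. The line marked as a site holds the 30 bases at chr7:113207531-113207560, after a second listed start of Arntl. Capitals mark the matches to the motifs named in the next paragraph.
Arntl: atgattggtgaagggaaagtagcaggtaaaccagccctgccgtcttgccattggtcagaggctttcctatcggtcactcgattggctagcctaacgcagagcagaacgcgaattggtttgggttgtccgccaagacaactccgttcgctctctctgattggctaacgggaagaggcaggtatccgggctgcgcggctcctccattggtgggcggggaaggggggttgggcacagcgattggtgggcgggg
Arntl site: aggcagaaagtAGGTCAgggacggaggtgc
Clock: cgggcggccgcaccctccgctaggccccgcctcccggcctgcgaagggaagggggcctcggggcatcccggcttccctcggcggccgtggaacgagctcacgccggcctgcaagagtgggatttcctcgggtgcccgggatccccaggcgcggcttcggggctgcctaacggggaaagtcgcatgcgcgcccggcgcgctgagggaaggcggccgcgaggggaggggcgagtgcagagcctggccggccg
Per3: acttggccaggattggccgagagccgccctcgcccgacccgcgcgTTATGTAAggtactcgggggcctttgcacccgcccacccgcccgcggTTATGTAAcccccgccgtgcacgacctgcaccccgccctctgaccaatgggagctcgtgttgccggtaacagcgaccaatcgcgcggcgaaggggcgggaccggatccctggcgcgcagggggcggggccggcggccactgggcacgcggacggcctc
Dbp: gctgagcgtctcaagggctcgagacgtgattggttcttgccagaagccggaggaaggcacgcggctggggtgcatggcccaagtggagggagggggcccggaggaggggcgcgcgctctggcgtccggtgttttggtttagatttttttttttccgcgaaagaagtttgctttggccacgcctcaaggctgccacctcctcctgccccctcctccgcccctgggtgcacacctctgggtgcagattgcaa

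Windows of 300 bases, from 250 before a start to 50 after it, were searched on both strands for the E-box CACGTG, the E-box variant CACGTT, the D-box TTATGTAA, the nuclear receptor half-site AGGTCA and the cyclic AMP response element TGACGTCA, none of which contains another. RefSeq windows were listed for 9 of the 10 genes, 13 windows in all, and the gene without one was Per2. Per3 held the D-box at 2 places, which begin 205 and 158 bases before its start, and none of the other 8 clock genes with a window held it. This motif was the rarest of those searched and stood in 0.938% of the 32851 windows of all genes. The receptor half-site began 31 bases after the second start of Arntl, 119 bases before one of the other 2 listed starts of Clock, and 137 bases before a start of Per1. Of all windows, 16.3% held it. The E-box stood in windows of Per1 and Cry1, 166 and 60 bases before the start, and in 7.15% of all windows. Cry1, Cry2 and Nr1d1 held the E-box variant, which stood in 4.68% of all windows. The cyclic AMP response element was in none of the 13 windows and in 1.79% of all windows. The window of Dbp held none of these letters. A match of letters is not a measurement of binding.

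Between 26171887 and 30201517 reads per mouse were counted on genes, so that 75 to 133 reads stood behind each value of Npas2, the gene with the fewest, and 6483 to 13320 behind each value of Dbp. Levels are given as CPM, counts scaled to a common library size with the TMM factors. Several other measures moved with the groups. The summed level of 7 rod photoreceptor markers lay between 55128 and 67821 CPM in naïve mice, at 30867 to 44713 CPM in those given vehicle and at 47266 to 60835 CPM in those given TD139. That of 7 microglia and macrophage markers was 17.6 to 19.5, 76.6 to 135 and 13.7 to 53.1 CPM, with the last value in TD139-treated mouse 1 and 15.4 and 13.7 CPM in the other mice of its group. In vehicle-treated against naïve mice 6 of the rod markers were called lower and 4 of the microglial markers higher, and for TD139 against vehicle 5 rod markers were called higher and 5 microglial markers lower. Of all tested genes 4.91% were called higher and 2.89% lower in the first of these comparisons and 17.2% and 16.2% in the second. Vehicle-treated mouse 2 had 6871 CPM of 4 lens markers against 2.22 to 7.61 in the other vehicle-treated mice. The naïve mice had 67.6 to 276 CPM of them, and TD139-treated mice 1, 2 and 3 had 6.15, 0.139 and 211 CPM. Of other cell types, 3 of 5 Müller glia markers were called higher in the vehicle group than in the naïve one. For TD139 against vehicle 3 of 5 bipolar cell markers were called higher and 1 lower, and 2 of 4 tested markers of the pigment epithelium and Gfap were called lower. None of these rod and microglial markers was at 0 in all mice, whereas Hba-a1 of red blood cells was. Reads outside annotated genes took 19.1 to 19.9% of a library in the naïve group, 16.5 to 19.4% in the vehicle group and 21.3 to 22.8% in the TD139 group. In whole retinas, fewer cells of a type and less RNA per cell cannot be told apart, and the part of these markers in the differences described here was not tested.

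On GRCm38, with the gene models of GENCODE M21, the genes whose levels differed lie at chr7:113207465-113314126 (Arntl), chr5:76209868-76304792 (Clock), chr1:91415982-91459324 (Per2), chr4:151003652-151044665 (Per3) and chr7:45705088-45710203 (Dbp). Per kilobase of transcript, Dbp had the highest level of the 10 genes, with a mean of 199 RPKM over the 9 mice, followed by Nr1d1 with 122 RPKM, Cry2 with 48.9 RPKM, Per1 with 34.0 RPKM and Arntl with 32.5 RPKM. Lower levels were found for Per3 (23.9 RPKM), Cry1 (23.7 RPKM), Per2 (6.63 RPKM) and Clock (6.06 RPKM). Npas2, the alternative partner of BMAL1, was lowest with 0.910 RPKM and a range of 0.625 to 1.12 RPKM over the mice. Neighbours in this order did not overlap over the 9 mice at 4 places, namely between Nr1d1 and Cry2, Cry2 and Per1, Cry1 and Per2, and Clock and Npas2. The ranges of all other neighbours overlapped, and the order of some turned by group. Arntl had a higher mean than Per1 in naïve mice (35.5 against 34.2 RPKM) and TD139-treated mice (38.2 against 34.7 RPKM). In vehicle-treated mice it was lower (23.7 against 33.1 RPKM).

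**Figure D1:**
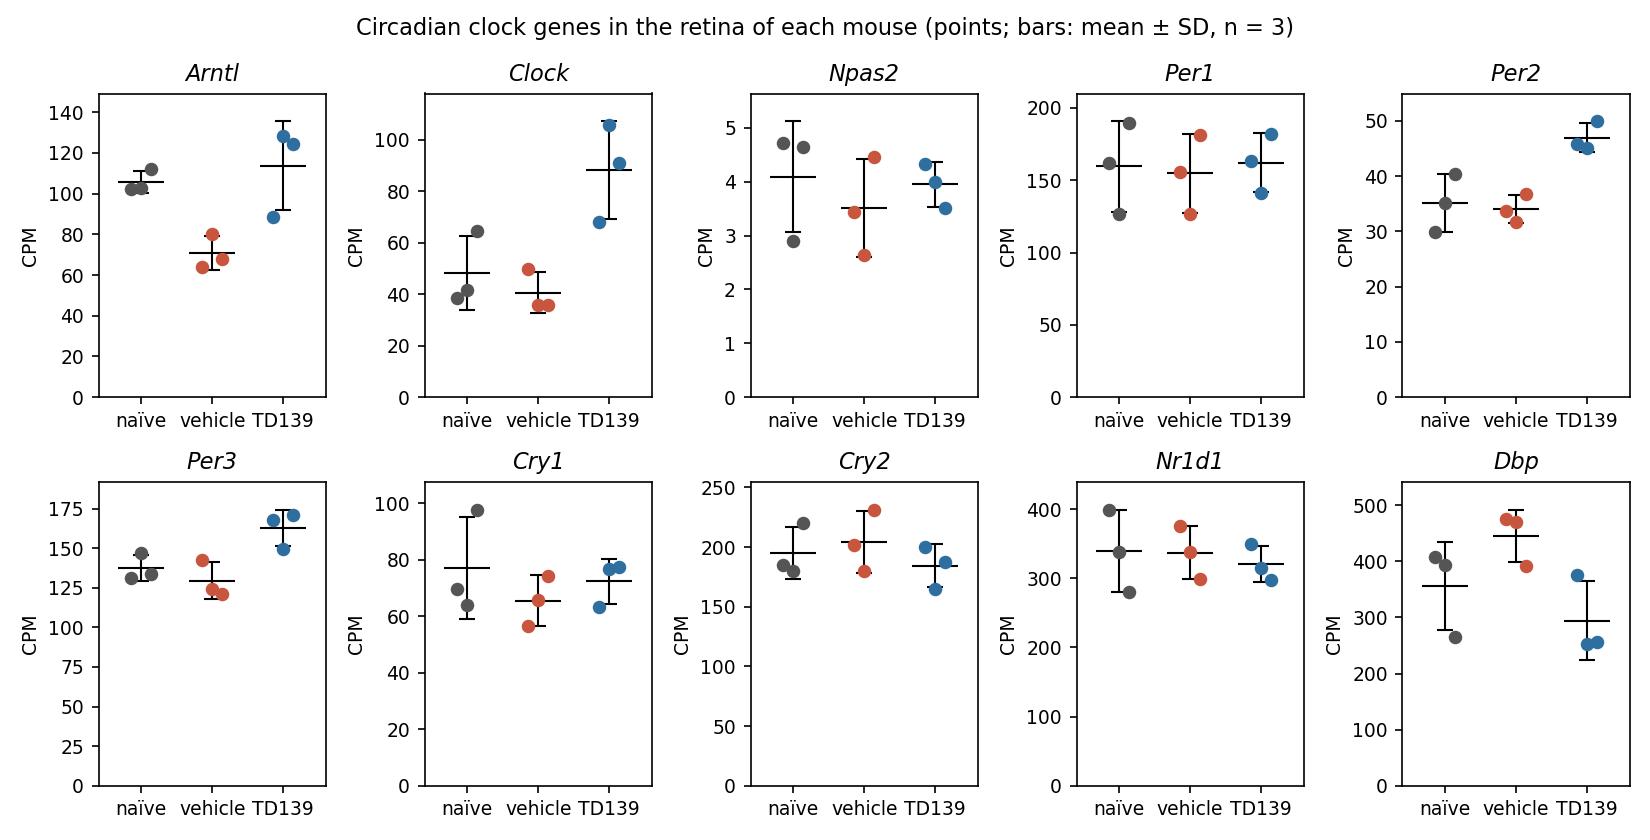
Level of each clock gene in every mouse, in CPM on a linear axis from 0, with points for single mice and bars for the mean ± SD of the 3 mice of a group. Arntl lies lower in all 3 vehicle-treated mice (64.2 to 80.1 CPM) than in the naïve mice, Clock, Per2 and Per3 lie higher in all TD139-treated mice than in the others, and Nr1d1 spans similar ranges in the 3 groups.

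Setting vehicle-treated against naïve mice asks what the clock genes did 4 days after light exposure. Arntl, the activator of the loop, was lower, and none of the other 9 genes passed the test. Arntl stood at 102, 103 and 112 CPM in naïve mice and at 64.2, 80.1 and 67.8 CPM in vehicle-treated mice. All 3 vehicle-treated mice lay below all 3 naïve mice. The group means were 106 ± 5.37 and 70.7 ± 8.34 CPM (SD, n = 3), and Arntl fell by 0.58 ± 0.14 (SE) on the log2 scale, to 0.669 times the naïve level (edgeR adjusted p = 0.0331). Thus 1 of 10 clock genes was called lower and 0 higher, where 2.89% and 4.91% of all tested genes were called in these directions. Its mice were also the only ones that did not overlap, against 33.3% of all genes in either direction. The median log2 fold change of the clock genes was -0.066, beside -0.0018 over all genes.

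The partners of BMAL1 did not pass the test in vehicle-treated mice. Clock differed by -0.25 ± 0.23 (SE) on the log2 scale (adjusted p = 0.505) and Npas2 by -0.22 ± 0.26 (adjusted p = 0.620). Among the repressors, Cry1 had the largest difference from naïve mice, -0.23 ± 0.16 (adjusted p = 0.373). The log2 fold changes of Per1, Per2, Per3 and Cry2 were -0.044, -0.044, -0.088 and 0.068. Nr1d1, the repressor of Arntl, stood at 298 to 375 CPM in vehicle-treated and 281 to 400 CPM in naïve mice, a log2 fold change of -0.0081. Dbp was measured at 409, 393 and 265 CPM in naïve mice and at 475, 470 and 392 CPM in vehicle-treated mice, and the lowest vehicle-treated mouse lay just under the second of the naïve mice. Its log2 fold change was 0.33 ± 0.19 (adjusted p = 0.295), and 0.13 when the length and GC content of the transcripts were corrected for (adjusted p = 0.515).

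The adjusted p of Arntl rested on few mice, since it rose to between 0.0709 and 0.116 when naïve mouse 1, 2 or 3 or vehicle-treated mouse 1 or 3 was left out, with log2 fold changes of -0.68 to -0.51 over all 9 omissions. Without vehicle-treated mouse 2, which held the most lens RNA, Arntl had a log2 fold change of -0.68 (adjusted p = 0.0336). The naïve mice in that comparison also held lens RNA, at 67.6 to 276 CPM.

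The comparison of TD139-treated with vehicle-treated mice asks what the inhibitor changed under the same light exposure. Here 4 of the 10 clock genes rose, Arntl, Clock, Per2 and Per3, and 1 fell, Dbp, where 17.2% of all tested genes were called higher and 16.2% lower. The same 5 genes were those whose mice did not overlap, as was so for 51.5% of all genes. None reached a log2 fold change of at least 2 in size, the threshold of the study, and none did in the other comparisons. Of all genes, 1.65% passed that threshold together with the adjusted p here, 1.24% between vehicle-treated and naïve mice and 0.0263% between TD139-treated and naïve mice. The median log2 fold change of the clock genes was 0.16, and that of all genes was -0.016. The vehicle-treated mice enter this comparison and the one before it, so their values weigh on both.

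Among the activators, Arntl stood at 88.4, 128 and 124 CPM in TD139-treated mice, and all 3 lay above the highest vehicle-treated mouse at 80.1 CPM. The lowest of them, mouse 1, was the one with the highest microglial markers of its group. Arntl rose by 0.69 ± 0.14 (SE) on the log2 scale, which is 1.61-fold (edgeR adjusted p = 0.00709). Clock, the histone acetyltransferase that pairs with BMAL1, was at 68.2, 106 and 90.8 CPM in TD139-treated mice against 49.7, 36.0 and 35.8 CPM in vehicle-treated mice. Its fold change in edgeR was 2.18-fold, or 1.12 ± 0.23 (SE) on the log2 scale (adjusted p = 0.00834), the largest of the clock genes. With transcript length and GC content corrected for it was 0.48, and that of Arntl, 0.75, was then the larger. Both genes passed the threshold with any of the 9 mice left out, with a highest adjusted p of 0.0397 for Arntl and 0.0418 for Clock. Npas2, at 3.52 to 4.34 CPM after TD139 and 2.65 to 4.47 CPM after vehicle, overlapped between the groups and gave an adjusted p of 0.642.

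Of the 5 repressors, Per2 and Per3 rose and the other 3 did not pass the test. Per2, whose protein binds CRY proteins and is stabilised or degraded according to its phosphorylation, was at 45.9, 45.1 and 49.9 CPM in TD139-treated and 33.6, 31.7 and 36.7 CPM in vehicle-treated mice. The mice of a group differed little among themselves and the difference, 0.46 ± 0.12 (SE) on the log2 scale, was larger than their spread (adjusted p = 0.0150). Per3 was at 168, 150 and 171 CPM after TD139 and 143, 124 and 121 CPM after vehicle, 0.33 ± 0.10 (SE) on the log2 scale (adjusted p = 0.0229). Per1, which light induces rapidly in the central clock, had 164, 141 and 182 CPM in TD139-treated and 156, 127 and 181 CPM in vehicle-treated mice, almost the same values in each group. The log2 fold changes of Per1, Cry1 and Cry2 were 0.069, 0.14 and -0.15, with adjusted p-values of 0.767, 0.515 and 0.355.

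Of the output genes, Dbp fell and Nr1d1 did not pass the test. Dbp was at 375, 252 and 256 CPM in TD139-treated mice, all below the lowest vehicle-treated mouse at 392 CPM. TD139-treated mouse 1 came within reach of the vehicle-treated mice, whereas the other two stood well below. The log2 fold change was -0.60 ± 0.19 (SE), or 0.661 times the vehicle level (adjusted p = 0.0362). It shrank to -0.098 (adjusted p = 0.635), and was not called, when the length and GC content of the transcripts were corrected for. Nr1d1 was at 350, 314 and 298 CPM after TD139, within the range of the vehicle-treated mice except at its low end, and its log2 fold change was -0.073 ± 0.14 (SE).

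The calls of the last 3 genes were lost when some single mice were left out. Over the omissions the log2 fold changes were 0.42 to 0.52 for Per2, 0.29 to 0.41 for Per3 and -0.81 to -0.50 for Dbp. The shares of all genes called also moved, to 5.61 to 19.4% higher and 4.91 to 19% lower. Per2 had an adjusted p of 0.0512 without vehicle-treated mouse 2 and 0.0651 without TD139-treated mouse 3. That of Per3 was 0.0712 and 0.0867 without vehicle-treated mice 2 and 3 in turn and 0.0888 without TD139-treated mouse 3. Per3 also missed the threshold when only the library size was used for scaling, at 0.0887. Dbp was called in 3 of the 9 omissions and missed the threshold without naïve mouse 2 (0.0501), without vehicle-treated mouse 1, 2 or 3 (0.0917, 0.0885 and 0.0565) and without the TD139-treated mice 2 or 3 (0.139 and 0.133). With TD139-treated mouse 1 left out all 5 genes were called, and Dbp had a log2 fold change of -0.81 (adjusted p = 0.00585).

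Fold changes between TD139-treated and vehicle-treated mice rose with the length of the transcript across 14287 genes (Spearman 0.50, a description across genes), and the 10 clock genes differ widely in length. The same coefficient was larger for TD139 against naïve mice, 0.61, and was -0.10 for vehicle against naïve mice. Clock has the longest transcript, 9744 bases, and Dbp the shortest, 1837 bases. When transcript length and GC content were corrected for within each mouse, Arntl kept its size, with a log2 fold change of 0.75 ± 0.14 (SE) (adjusted p = 0.00946). Clock was reduced to 0.48 ± 0.13 (adjusted p = 0.0211) and Per2 to 0.36 ± 0.10 (adjusted p = 0.0223), and both stayed called. Per3 was no longer called, at 0.17 ± 0.092 (adjusted p = 0.185). Dbp was no longer called either, at -0.098 ± 0.14 (adjusted p = 0.635), and Nr1d1 changed from -0.073 to 0.23. After the correction 14.9% of all genes were called higher and 8.05% lower, and the median of all genes was 0.080. The correction also re-centred each mouse, and the part of this scaling in the changes was not tested. Against naïve mice the corrected fold change of Arntl in vehicle-treated mice was -0.66 ± 0.14 (adjusted p = 0.0154), where 13.7% of all genes were then called lower and 6.19% higher, and the median of all genes was -0.11.

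**Figure D2:**
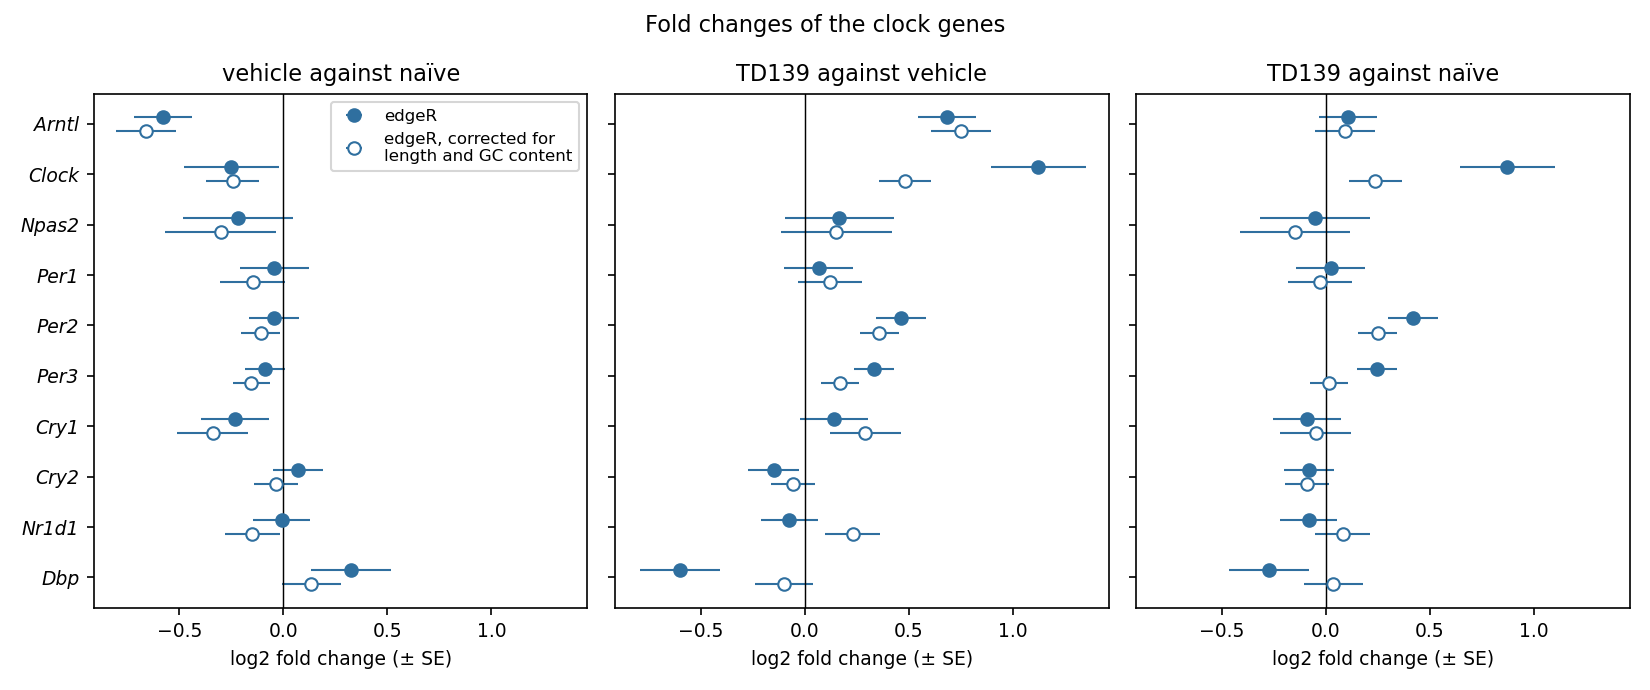
Log2 fold change ± SE of each clock gene in the 3 comparisons, from the 9 mice, as estimated by edgeR (filled points) and with length and GC content of the transcripts corrected for (open points). The filled and open points of Arntl lie close together in all comparisons, whereas for TD139 against vehicle Clock moves from 1.12 to 0.48 and Dbp from -0.60 to -0.098.

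The comparison of TD139-treated with naïve mice asks how far the clock genes of treated, light-exposed retinas stood from those of undisturbed ones. None of the 10 genes passed the threshold in edgeR, where 2.72% of all genes were called higher and 2.38% lower, and 3 had an unadjusted p under 0.05, as did 29.6% of all genes. These 3 were Clock, Per2 and Per3, whose TD139-treated mice all lay above the naïve mice, as was so for 15.3% of all genes. Clock ranged from 68.2 to 106 CPM after TD139 and from 38.5 to 64.5 CPM in naïve mice, a log2 fold change of 0.87 ± 0.23 (SE) (adjusted p = 0.0541). Per2 had a log2 fold change of 0.42 ± 0.12 (adjusted p = 0.0578) and Per3 one of 0.24 ± 0.10 (adjusted p = 0.121). Arntl differed from naïve mice by 0.11 ± 0.14 (adjusted p = 0.649), with the naïve values of 102 to 112 CPM inside the range of the TD139-treated mice. Dbp differed by -0.27 ± 0.19 (adjusted p = 0.374), and the groups overlapped. The log2 fold changes of Npas2, Per1, Cry1, Cry2 and Nr1d1 were -0.051, 0.024, -0.092, -0.080 and -0.081, with adjusted p-values of 0.697 to 0.938. With DESeq2 the adjusted p was 0.00276 for Clock and 0.0141 for Per2, where 9.4% of all genes were called higher, whereas after the length and GC correction Clock, Per2 and Per3 had log2 fold changes of 0.24, 0.25 and 0.017 and none of them was called, nor was any gene of the table.

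Dbp and Arntl, whose RNAs peak at opposite times, were also set against each other in each mouse. The ratio of their CPM was 3.99, 3.83 and 2.37 in naïve mice and 7.40, 5.88 and 5.78 in vehicle-treated mice. In TD139-treated mice it was 4.25, 1.97 and 2.06. The vehicle-treated mice did not overlap with either other group, while naïve and TD139-treated mice did. For TD139 against vehicle this was fixed by the single genes, since all TD139-treated mice lay higher in Arntl and lower in Dbp. Against naïve mice the ratio reuses the Arntl values, which already did not overlap. The uncorrected ratio is therefore not separate support for those differences. With the length and GC correction applied to both genes, which was chosen after seeing the data, the naïve group lay at 2.53 to 3.66, the TD139 group at 2.35 to 4.78 and the vehicle group at 4.999 to 6.66, so that the last 2 groups came closer and still did not overlap. With 3 mice a group, the smallest p of an exact permutation test is 0.1, so no test is given for the ratio. Within each group the mouse with the most Dbp had the least Arntl. How many other genes had this order against Dbp was not counted. By the correlations of the next paragraph, Arntl ranked 11332 of 13092 genes from the most alike to Dbp, so many genes were more opposite.

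**Figure D3:**
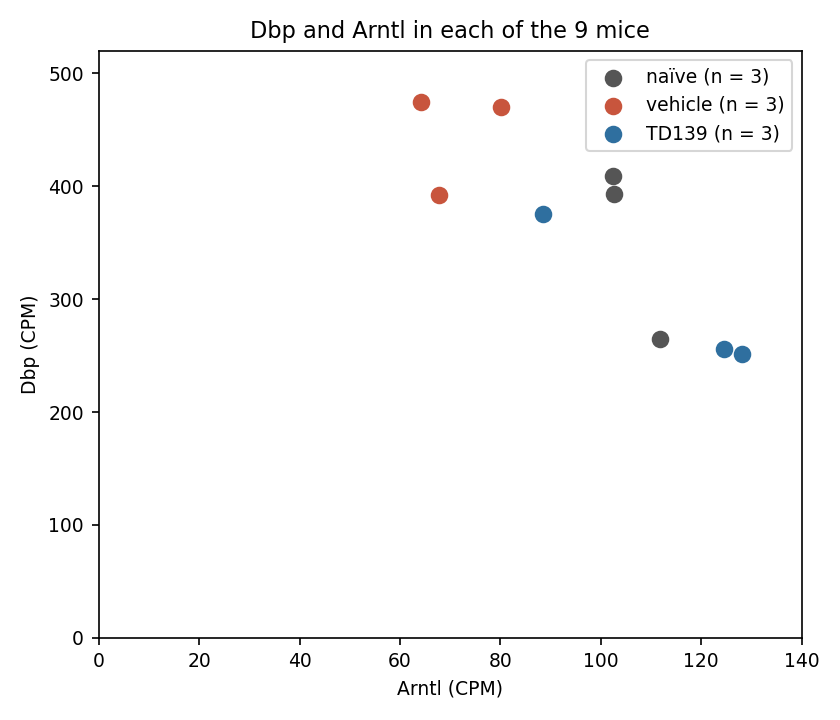
Dbp against Arntl in each of the 9 mice, in CPM on linear axes from 0, coloured by group. The 3 vehicle-treated mice lie at the upper left, with 392 to 475 CPM of Dbp and 64.2 to 80.1 CPM of Arntl, and TD139-treated mice 2 and 3 lie at the lower right.

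Over the deviations of single mice from their group means, the genes most alike to Arntl among 13092 genes were Cep85, Gabpb1, Ccnl2, Eml1 and Max, with Pearson correlations of 0.98 to 0.99 over 9 mice, and the most opposite were Adora1, Atg7, Dclk2, Rprm and Lgi4. For Dbp the most alike were Zfp575, Pet112, Tcf7l1, Gstt1 and Emc10 and the most opposite Golga1, Dctn4, Slc30a7, Syt14 and Ino80. Of the clock genes, Nr1d1 was most like Dbp, with a correlation of 0.86, and Cry1 was most opposite to it, with -0.91. Clock and Per2 stood at -0.74 and -0.71 to Dbp, and Arntl at -0.66. Ranked from the most alike of the 13092 genes, Clock, Per2 and Arntl stood at 11941, 11701 and 11332. Many other genes were thus more opposite to Dbp than these. These values describe 9 mice that share a common scaling of library size.

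The spread between mice of a group differed among the clock genes. The SD of log2 CPM within groups was 0.34 for Clock, 0.32 for Npas2 and 0.29 for Dbp, and 0.11 for Per3, the steadiest. The median over the 10 genes was 0.22, and that over all tested genes was 0.19.

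The neighbours of the clock genes on the genome bear on how their reads were counted. Dbp shares 539 of its 2993 exonic bases with Sphk2 on the opposite strand, and Nr1d1 shares 263 of its 3077 exonic bases with Thra on the opposite strand. Cry2 shares 295 bases with D930015M05Rik. Whether the counting used strand is not given in the sources used here, so reads from the shared stretches cannot be told apart. Sphk2 had 27.3 to 40.3 CPM and did not pass the test in any comparison, with a log2 fold change of -0.17 for TD139 against vehicle. Thra had a log2 fold change of -0.34 in that comparison (adjusted p = 0.0443).

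Beyond the 10 genes, 36 further genes of the clock machinery were listed, of which 33 were tested. Between vehicle-treated and naïve mice 0 passed the test in edgeR, although 2 were higher and 4 lower at an unadjusted p under 0.05, as were 14.4% and 13.2% of all genes. DESeq2 called 2 higher and 1 lower, beside 8.92% and 7% of all genes. Limma voom with sample weights called 3 and 2, beside 12% and 9.95%, and the fit with the length and GC correction 0 and 4, beside 6.19% and 13.7%. After TD139, relative to vehicle, 10 rose and 1 fell, where the shares over all genes were 17.2% and 16.2%. Ciart and Drd1 had no joined transcript and could not be corrected. Of the other 31, 4 were called higher and 1 lower with the correction, where 14.9% and 8.05% of all genes were. Rora, Adcy1 and Tipin were called in both fits, Nfil3 and Nono with the correction alone, and the other 7 corrected genes that edgeR called lost their call. Of these Sfpq, a splicing factor that binds PER complexes, kept its log2 fold change, 0.57 before and 0.61 after the correction (adjusted p = 0.0610), and was chosen here after its values were seen. In the second loop 3 of 4 nuclear receptors rose, and of these Rora alone was called after the correction. Nr1d2, the paralogue of Nr1d1, was at 176, 228 and 181 CPM after TD139 against 146, 137 and 119 CPM after vehicle, without overlap. Its log2 fold change was 0.54 (adjusted p = 0.0104) and 0.22 after the correction (adjusted p = 0.0730). Rora, an activator of Arntl, was at 11.6, 28.0 and 25.5 CPM after TD139 and at 7.08, 4.59 and 3.96 CPM after vehicle, a log2 fold change of 2.06 (adjusted p = 0.0135), and of 1.37 after the correction (adjusted p = 0.0206). It passed the threshold in 6 of the 9 omissions of a mouse and failed it without vehicle-treated mouse 3 and without TD139-treated mouse 2 or 3. Rorb, which is needed for photoreceptor development, rose by 0.40 (adjusted p = 0.0443) and stood at -0.19 after the correction.

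Of the PAR bZIP factors and Nfil3, which act on D-boxes like Dbp, 0 of 3 passed the test for TD139 against vehicle. The shares over all genes there were 17.2% higher and 16.2% lower, so 0 of 3 does not set this list apart. Nfil3 had a log2 fold change of 0.035 and was called after the correction, at 0.46 (adjusted p = 0.0359). Tef, the most abundant, had a log2 fold change of -0.094. Hlf was at 190 to 210 CPM in naïve and 267 to 278 CPM in TD139-treated mice and rose between these groups by 0.45 on the log2 scale (adjusted p = 0.0417), and had 0.12 after the correction (adjusted p = 0.598). It was called in 4 of 9 omissions and missed the threshold when naïve mouse 1, naïve mouse 2, vehicle-treated mouse 2, TD139-treated mouse 2 or TD139-treated mouse 3 was left out. The 4 genes listed as E-box repressors and Arntl2 gave 0 calls in edgeR in each comparison, with 1 higher and 2 lower at an unadjusted p under 0.05 for TD139 against vehicle, where 23.4% and 23% of all genes were. Bhlhe41, the most abundant, had a log2 fold change of 0.21 for TD139 against vehicle, which turned to -0.084 after the correction. Against naïve mice it had -0.32 in vehicle-treated mice (adjusted p = 0.0902) and was called lower after the correction, at -0.33 (adjusted p = 0.0181). Ciart, a repressor of the BMAL1 and CLOCK pair chosen here after its values were seen, was at 36.8 to 41.3 CPM in vehicle-treated, 15.8 to 35.6 CPM in TD139-treated and 25.6 to 32.7 CPM in naïve mice. Its log2 fold change for TD139 against vehicle was -0.68 (adjusted p = 0.0552).

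Of 14 kinases, ubiquitin ligases and partners of the clock proteins, 5 rose and 1 fell between TD139-treated and vehicle-treated mice, where 17.2% of all genes were called higher and 16.2% lower. Gsk3b, a kinase of several clock proteins, rose by 0.57 (adjusted p = 0.0152) and had 0.13 after the correction. Btrc, the ligase that recognises phosphorylated PER proteins, rose by 0.25 (adjusted p = 0.0245) and had 0.19 after the correction (adjusted p = 0.0817). Tipin, the partner of Timeless, fell by 0.56 on the log2 scale (adjusted p = 0.0181) and had -0.46 after the correction (adjusted p = 0.0427). Of 8 tested genes of retinal clock input and output, 2 rose in this comparison, a share near the 17.2% of all genes. Adcy1, the calcium-stimulated adenylyl cyclase that is rhythmic in photoreceptors, was at 429, 558 and 561 CPM after TD139 against 329, 291 and 229 CPM after vehicle, without overlap. Its log2 fold change of 0.87 (adjusted p = 0.00588) was 0.46 after the correction (adjusted p = 0.0191) and passed the threshold in all 9 omissions. Drd1, a dopamine receptor, rose by 0.31 (adjusted p = 0.0335). Drd4, the clock-controlled dopamine receptor of photoreceptors, was lower in TD139-treated than in naïve mice, at a log2 fold change of -0.61 (adjusted p = 0.0498), with 141 to 152 CPM after TD139 and 176 to 276 CPM in naïve mice, and it was called in 1 of 9 omissions, that of vehicle-treated mouse 3, and not after the correction, at -0.46 (adjusted p = 0.249). Of the 11 genes called between TD139-treated and vehicle-treated mice, the 10 other than Adcy1 lost their call without TD139-treated mouse 2, and the 9 of these other than Nr1d2 also lost it without vehicle-treated mouse 3 and without TD139-treated mouse 3. Calls over all genes fell as well, to 5.61% higher and 4.91% lower without TD139-treated mouse 2.

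**Figure D4:**
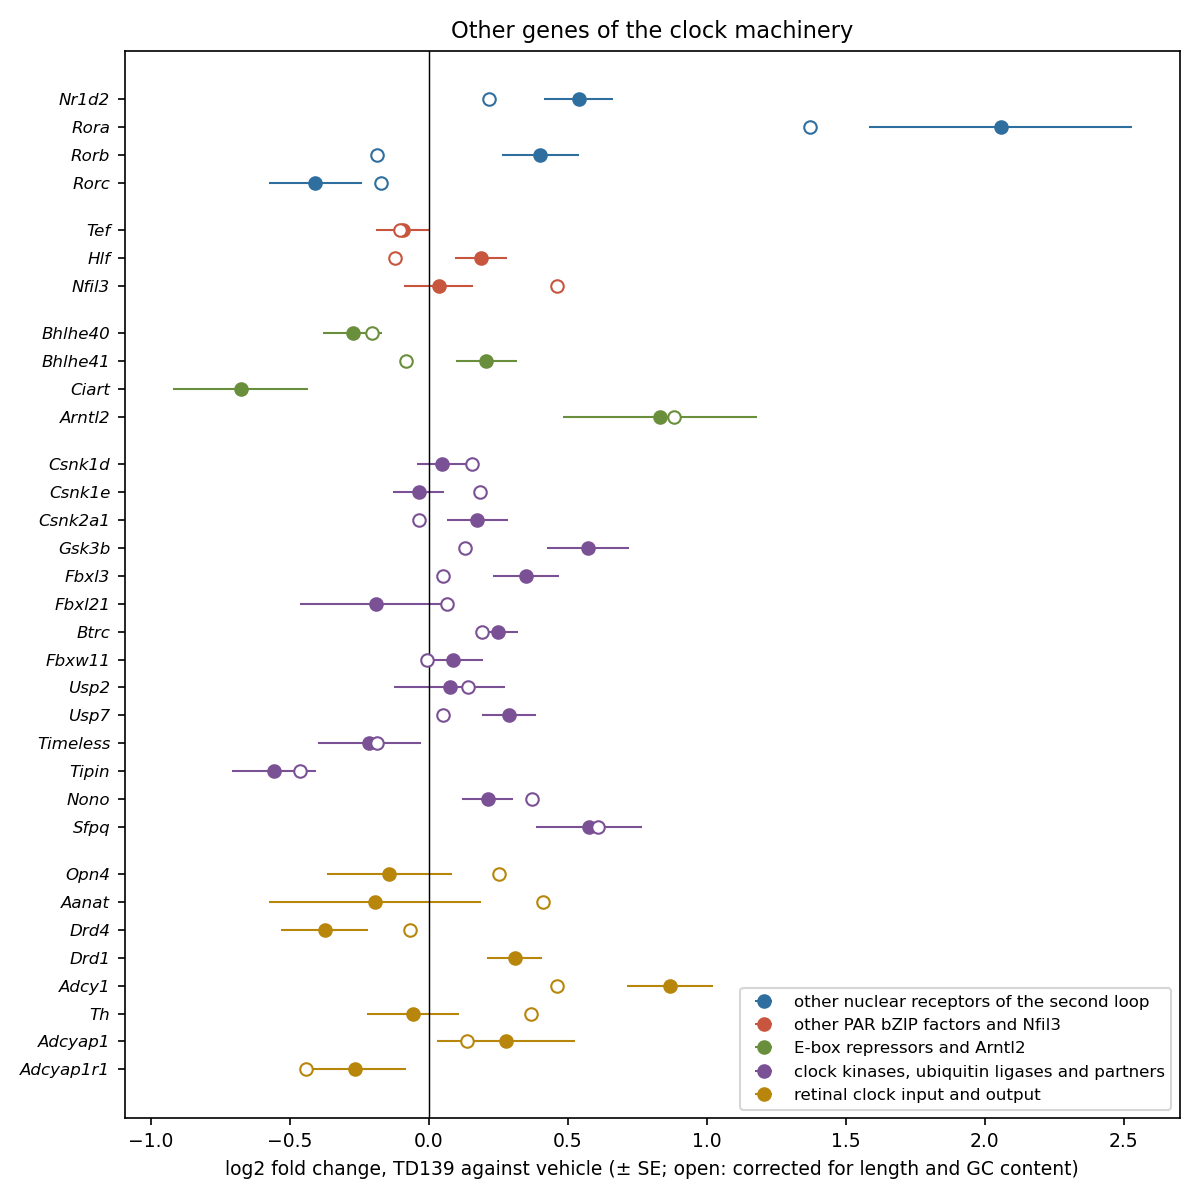
Log2 fold change for TD139 against vehicle of the 33 tested companion genes, grouped by role (colours), from edgeR (filled, with the SE as bars) and, for the 31 genes with a joined transcript, with length and GC content corrected for (open). Ciart and Drd1 have no open point. Rora lies farthest to the right at 2.06 and 1.37, Adcy1 stays above 0 with both, and Rorb crosses from 0.40 to -0.19.

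Glucocorticoid-responsive and immediate early genes, which hormones and stimulation set in many tissues, were counted as context. Of 8 glucocorticoid-responsive genes, Ddit4 was lower in vehicle-treated than in naïve mice, at a log2 fold change of -0.64 (adjusted p = 0.0235) and of -0.86 after the correction (adjusted p = 0.0137). It lost its call without any one of the naïve mice and without vehicle-treated mouse 1 or 3. Nr3c1, the receptor itself, was higher after TD139 than after vehicle by 0.68 (adjusted p = 0.00822), was called in all 9 omissions, and had 0.22 after the correction (adjusted p = 0.143). Sgk1 was higher by 0.65 (adjusted p = 0.0443), had 0.71 after the correction (adjusted p = 0.0509), and was called in 2 of 9 omissions, those of vehicle-treated mouse 2 and TD139-treated mouse 1. Of 9 immediate early genes, Nr4a1 was lower in vehicle-treated than in naïve mice, at -0.87 (adjusted p = 0.0285) and at -1.04 after the correction (adjusted p = 0.0139), and lost its call without any one of these 6 mice. Junb was lower after TD139 than after vehicle, at -1.17 (adjusted p = 0.00756), was called in all 9 omissions, and had -0.66 after the correction (adjusted p = 0.0481). Egr2 had few reads and was at 0 to 0.556 CPM after TD139 and 1.27 to 2.18 CPM after vehicle. Its log2 fold change of -3.09 (adjusted p = 0.0356) ranged from -5.47 to -2.54 over the omissions, 3 of which kept the call, those of naïve mouse 2, vehicle-treated mouse 2 and TD139-treated mouse 1, and after the correction it was of similar size, -2.98, with an adjusted p of 0.0512. With the correction Ddit4 and Dusp1 were called higher for TD139 against vehicle, at 0.82 (adjusted p = 0.0130) and 0.86 (adjusted p = 0.0290), and 6 of the 17 genes were called lower in vehicle-treated than in naïve mice, where 13.7% of all genes were. In edgeR 2 of 17 were called lower there, where 2.89% of all genes were, and 2 higher and 2 lower for TD139 against vehicle, where 17.2% and 16.2% were. Between TD139-treated and naïve mice 0 of these genes passed the test in edgeR, and at an unadjusted p under 0.05 the first list had 1 higher and 1 lower and the second 3 lower, where 15.5% of all genes were higher and 14.1% lower.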

How the data were processed

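Stranded poly(A) libraries from 9 mice were sequenced as single reads on 2 flow cells. The authors deposited 1 table for each library and run, which holds raw counts of reads per gene symbol from BaseSpace RNA Express. The build mm10 is that of the submitters' processing notes, and the aligner, annotation and strand setting are not given in the sources used here. The study's data statement speaks of normalized counts, but the values are unscaled whole numbers. Reads on no feature, 16.5 to 22.8% of a library, were left out. Both runs of a mouse were summed, so that the mouse was the replicate. Whether the mice of a group shared a litter is not given. The p-values set a group difference against the spread between these mice, as estimated with the help of all genes.

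Genes were filtered with filterByExpr, scaled with TMM and tested with the robust quasi-likelihood F test of edgeR 4.0.16 in R 4.3.3, with all 3 groups in 1 fit. P-values were adjusted over 15196 genes by Benjamini and Hochberg, and a gene was called at an adjusted p under 0.05. Positions, overlaps and transcript lengths (the longest protein-coding transcript) came from GENCODE M21 on GRCm38, joined by symbol for 92.98% of the symbols, and RPKM is CPM divided by that length in kilobases. In the correction, a spline with 4 degrees of freedom each on length and GC content was fitted per mouse and entered as an offset, and genes without a joined transcript got none. The intercept of each fit was entered too, so the correction also re-centred each mouse on the mean log CPM of the joined genes. Changes after the correction therefore hold this change of scaling as well. Alternatives were DESeq2 1.42.0, limma 3.58.1 voom with sample quality weights, RLE or library size alone, 2 other filters, only the groups compared, single runs, the replicate number in the model, and each mouse left out in turn. The fits were also run on simulated counts, in which every gene had the same dispersion and no mouse stood apart. That run therefore does not show how the fits do on these mice. Correlations of deviations were taken over genes whose mean count reached 50.

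All 10 clock genes are named in each comparison. From other lists, up to 3 called genes are named by smallest adjusted p, or the gene with the highest mean count where none was called. The genes and lists were chosen with earlier results of these data known.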

Additional observations from a re-analysis of the deposited data

How the results depend on the processing

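Under 11 alternatives and the omission of each of the 9 mice, the calls of Arntl and Clock between TD139-treated and vehicle-treated mice were kept throughout. In that comparison 4 clock genes were higher and 1 lower in edgeR. With a mouse left out 2 to 4 were higher and 0 to 1 lower, where 5.61 to 19.4% and 4.91 to 19% of all genes were, and after the length and GC correction 0 were lower (8.05% of all genes). Between vehicle-treated and naïve mice 0 to 1 was lower with a mouse left out (0 to 5.28% of all genes). Between TD139-treated and naïve mice 2 genes were higher with DESeq2 and 2 with voom, where 9.4% and 19.7% of all genes were, 1 with the filter at 50 counts and 1 with run 2 alone (4.41% and 3.43% of all genes), 0 to 2 with a mouse left out (0 to 9.87%), and 1, Dbp, was lower with voom (16.3% of all genes). The cause was not tested. The replicate numbers of the labels were not taken to pair the mice, because the deviations of same-numbered mice over all genes correlated at -0.26 to 0.28, although some clock genes had similar levels in same-numbered mice, as described among the other observations. With the replicate number as a block, Arntl had -0.59 between vehicle-treated and naïve mice and Clock 1.11 between TD139-treated and vehicle-treated mice, and no call of a clock gene changed.

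Signs changed among genes that were not called. For vehicle against naïve these were, with voom, Npas2 0.078, Per1 0.16 and Nr1d1 0.021. With library size alone they were Per1 0.057, Per2 0.053, Per3 0.0067 and Nr1d1 0.087, and with the correction Cry2 -0.035. Nr1d1 had 0.0079 with the filter at 50 counts, 0.0053 with run 1 alone and 0.0041 with only the groups compared. With a mouse left out, Clock ranged from -0.42 to 0.022, Per1 from -0.17 to 0.10, Per2 from -0.14 to 0.076, Cry2 from -0.031 to 0.17 and Nr1d1 from -0.12 to 0.14. For TD139 against vehicle, Npas2 had -0.0022 with run 1 alone, Per1 -0.021 with library size alone and Nr1d1 0.23 with the correction, and with a mouse left out Per1 ranged from -0.055 to 0.20 and Nr1d1 from -0.16 to 0.011. For TD139 against naïve, voom gave Npas2 0.23 and Cry1 0.16, and the correction gave Per1 -0.027, Nr1d1 0.081 and Dbp 0.036. With a mouse left out, Npas2 ranged from -0.24 to 0.076, Per1 from -0.10 to 0.17, Cry1 from -0.20 to 0.12, Cry2 from -0.13 to 0.021 and Nr1d1 from -0.20 to 0.063.

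The counts over all genes moved more. For vehicle against naïve 746 genes were higher and 439 lower in edgeR, 1355 and 1063 with DESeq2, 1821 and 1512 with voom, 893 and 258 with library size alone, 941 and 2075 after the correction, and 1 and 0 without naïve mouse 2. For TD139 against naïve 413 and 362 became 1429 and 1157 with DESeq2, 2995 and 2472 with voom, 1 and 0 with only the groups compared, and 0 and 0 under the block, the correction and the omission of 5 of the 9 mice. For TD139 against vehicle 2617 and 2455 became 3550 and 3480 with voom, 1942 and 3040 with library size alone, 2257 and 1224 after the correction, and 867 and 759 without TD139-treated mouse 2. Over all genes, the median log2 fold change was 0.094 and -0.10 for vehicle against naïve and for TD139 against vehicle with library size alone, and -0.11 and 0.080 with the correction. Each clock gene other than Npas2 had at least 776 reads in every mouse.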

Other observations

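The mice with the same number in the 3 groups had similar levels of some clock genes, a pattern chosen after the values were seen and given as a description. Per1 was highest in mouse 3 and lowest in mouse 2 of every group, at 189, 181 and 182 CPM against 127, 127 and 141 CPM. Nr1d1 was highest in mouse 1 and lowest in mouse 3 of every group, at 400, 375 and 350 CPM against 281, 298 and 298 CPM. Of the tested genes 412, or 2.71%, had the same order of numbers in all groups. The mouse number held 96.8% of the within-group spread of Per1 and 89.9% of that of Nr1d1, more than in 99.9% and 99.2% of all tested genes. For Cry2, Cry1, Dbp and Per2 this share was 75.5, 70.8, 70.7 and 68.3%, for Arntl 57.2% and for Npas2 51.0%. Per3 and Clock had 12.4 and 11.7%. The median of the 10 genes was 69.5% and that of all tested genes 31.9%. What the numbers stand for is not given in the labels, and the hour at which each retina was taken is not known, so the part of either was not tested.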
